A study of Mus musculus with 6 samples.

Results

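The branched-chain ketoacid dehydrogenase and its control were examined in ventricles of miR-499 transgenic mice through 8 genes, of 19938 genes named on the array. The 8 are Bcat2, the 4 subunit genes Bckdha, Bckdhb, Dbt and Dld, the kinase gene Bckdk, the phosphatase gene Ppm1k and the transcription factor gene Klf15. All 8 were measured. Each was represented by its brightest probe set with a single gene symbol, and each of the 8 had only 1 such probe set. RNA of whole ventricles was hybridised to Affymetrix Mouse Gene 1.0 ST arrays, 1 array per mouse. The transgenic animals were 3 TG-17 mice, which carry a mouse miR-499 transgene driven in cardiomyocytes by the Myh6 promoter. They were compared with 3 wild-type littermates (WT), and both groups were taken at postnatal day 17, with no treatment named. The transgene was made in FVB/NCrl embryos, and TG-17 is a single transgenic line, the lower-expressing of a pair of lines. The sample labels give only the genotype, so the line is taken from the study's methods.

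Leucine, isoleucine and valine, the branched-chain amino acids, are broken down in mitochondria, and heart muscle is a tissue that oxidizes them. An aminotransferase first removes the amino group, and the branched-chain ketoacid dehydrogenase then commits the resulting ketoacids to oxidation. The dehydrogenase is built from a decarboxylase (E1), a transacylase core that carries lipoic acid (E2) and a dehydrogenase (E3). A kinase switches it off by phosphorylating E1, and a phosphatase switches it on again. Klf15 is known in mouse heart and skeletal muscle as an activator of genes of this pathway, and as a gene that glucocorticoids induce.

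Of the 8 genes, 2 fell in TG-17 ventricles, none rose and 6 did not pass. The E2 gene Dbt was 1.41-fold lower and the aminotransferase gene Bcat2 was 1.28-fold lower. A gene was called where B, the log odds of a difference from limma, was above 0, the looser of the cut-offs in the study. Over all 35556 probe sets, 0.366% were called, 0.211% as lower and 0.155% as higher in TG-17. This split depended on the scaling, with 75 lower and 55 higher as deposited and 40 lower and 96 higher with each array centred on its median. All 8 genes were bright, with mean signals from percentile 86.2 (Klf15) to 99.0 (Dld) of the named genes. When only probe sets above the median mean value were fitted, 191 of 17778 were called, a larger share than over all probe sets. None of the 8 passed an adjusted p under 0.05 from limma, which 0.00562% of all probe sets passed, and 3 of the 8 passed an unadjusted p under 0.05, all lower, against 8.50% of all probe sets. The 3 TG-17 values lay below the 3 WT values for 5 of the 8 genes and above them for 1, against 12.1% and 11.3% of all probe sets. The gaps of Bckdha and Bckdhb were only 0.010 and 0.0080 log2 units, and array medians were also lower in TG-17. Counts of groups that do not overlap can thus depend on the scaling, and they were not recomputed with centred arrays. The TG-17 mean was the lower for 5 of the 8, against 53.9% of all probe sets. The 8 genes, like the lists below, were chosen with earlier results of these data known, including those of Dbt and Bcat2. The shares over all probe sets are therefore a background and not an independent test. The median log2 difference was -0.099 over the 8 genes and -0.018 over all named genes. A smaller amount of RNA per cell and fewer cells of a type cannot be told apart in whole ventricles.

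The sequence of mature miR-499-5p is shown because the comparison turns on this microRNA. The promoters of 2 of the 8 genes are shown because Bcat2 fell while Klf15, its known activator, did not pass. All are RefSeq sequences of GRCm38.p6. There 7 of the 8 genes, all but Dbt, matched a promoter window. Such a window runs from 250 bases before to 50 bases after the start of the gene. Mature miR-499-5p lies on chr2:155622893-155622913, plus strand, within the Myh7b gene, and the capitals mark its seed, bases 2 to 8. The Bcat2 window is chr7:45569903-45570202, plus strand, and its capitals mark a match to CACCC or its complement GGGTG, the short core that Klf factors bind. The Klf15 window is chr6:90462326-90462625, plus strand, and its capitals mark CACGTG, the E-box bound by clock factors and related proteins.
miR-499-5p: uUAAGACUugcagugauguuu
Bcat2: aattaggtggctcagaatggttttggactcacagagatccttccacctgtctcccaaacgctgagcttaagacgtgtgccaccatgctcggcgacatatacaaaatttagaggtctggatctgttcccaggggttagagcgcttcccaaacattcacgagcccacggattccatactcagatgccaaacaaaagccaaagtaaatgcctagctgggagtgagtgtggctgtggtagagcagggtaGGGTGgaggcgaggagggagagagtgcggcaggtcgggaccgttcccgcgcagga
Klf15: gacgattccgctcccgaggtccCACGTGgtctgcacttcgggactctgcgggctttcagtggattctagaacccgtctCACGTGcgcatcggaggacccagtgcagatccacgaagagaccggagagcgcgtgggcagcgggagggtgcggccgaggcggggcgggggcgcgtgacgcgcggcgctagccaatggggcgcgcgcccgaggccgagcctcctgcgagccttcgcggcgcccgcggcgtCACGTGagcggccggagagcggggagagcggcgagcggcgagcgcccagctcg

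CACCC, read on both strands, was found in 57.5% of all 32851 promoter windows, so a match as in Bcat2 is common. Bcat2 and Bckdhb had 2 windows each, for different start sites, and each had the motif in 1 of them. It was also found in the windows of Bckdk and Klf15, and not in those of Bckdha, Dld and Ppm1k. CACGTG, which reads the same on both strands, was found in 7.15% of all windows. The Klf15 window held 3 copies, and 3 or more were found in 29 windows, or 0.0883%. No window of the other 6 genes held CACGTG, and the 2 motifs did not overlap in the Klf15 window. Such matches describe the letters only.

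The signal of the Mir499 gene was first checked in each mouse. The Mir499 probe set had log2 values of 9.31, 9.33 and 8.87 in the TG-17 mice, against 5.48, 5.34 and 5.68 in the WT mice. This was a 12.7-fold rise (log2 standard error 0.15, adjusted p = 0.00772 from limma), and each array thus carried the transgene signal its label gives. Array medians on the log2 scale were 6.89 to 6.91 for TG-17 and 6.93 to 6.95 for WT. Pearson's r across probe sets, which are not independent, was 0.992 to 0.994 within TG-17, 0.992 to 0.993 within WT and 0.990 to 0.992 between the groups. No single array stood apart from its group, but every TG-17 median lay below every WT median.

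Bcat2, the mitochondrial aminotransferase that opens the pathway, had log2 values of 9.40, 9.37 and 9.45 in TG-17 ventricles, against 9.78, 9.71 and 9.81 in WT ventricles. The groups were separated by a gap of 0.26 log2 units. The means were 9.41 ± 0.040 in TG-17 and 9.77 ± 0.047 in WT (SD, n = 3 each), so the difference was well beyond the spread between mice. The log2 difference was -0.36 (standard error 0.053, 95% interval -0.49 to -0.23), and limma gave a B of 0.45 and an adjusted p of 0.205. Its call was fragile. Without any 1 of the 6 mice the log2 difference was -0.38 to -0.34, yet B was below 0 in each of the 6 cases, and it was also below 0 when each array was centred on its median.

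The decarboxylase genes showed small differences that did not pass. Bckdha, the E1 alpha subunit that carries the regulatory phosphorylation, had log2 values of 10.71, 10.65 and 10.62 in TG-17, against 10.81, 10.83 and 10.72 in WT. All 3 TG-17 values lay below the WT values, the nearest of them by 0.010 log2 units. Its log2 difference was -0.13 (standard error 0.056, 95% interval -0.26 to 0.011, adjusted p = 0.351 from limma). Bckdhb, the E1 beta subunit, had log2 values of 9.96, 9.95 and 9.88 in TG-17, against 10.04, 9.97 and 10.00 in WT. The groups again did not overlap, by 0.0080 log2 units, and the log2 difference was -0.072 (standard error 0.052, 95% interval -0.20 to 0.053, adjusted p = 0.530 from limma). Differences as large as that of Dbt lay outside both intervals. With each array centred on its median, the log2 differences were -0.074 for Bckdha and -0.021 for Bckdhb.

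Dbt, the transacylase that forms the core of the complex and passes the acyl group to coenzyme A, showed the largest difference of the 8 genes. Its log2 values were 9.47, 9.50 and 9.53 in TG-17 ventricles, against 10.00, 10.02 and 9.97 in WT ventricles. The gap between the groups was 0.44 log2 units, far wider than the spread within either group. The means were 9.50 ± 0.030 in TG-17 and 10.00 ± 0.024 in WT (SD, n = 3 each). The log2 difference of Dbt was -0.50 (standard error 0.048, 95% interval -0.61 to -0.38), and limma gave a B of 2.20 and an adjusted p of 0.129. By its p-value it was at rank 11 of the 35556 probe sets and at rank 5 of the 19938 named genes. Its B stayed above 0 in all 16 alternative settings that gave one, of which averaging probe sets per gene only repeats the main fit. With the mouse number as a replicate block, however, B was only 0.018. Over the alternatives its adjusted p from limma ran from 0.0145 with an intensity trend to 0.401 without TG-17 replicate 2, and it was 0.318 with the block.

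Dld, the dehydrogenase that is shared with the pyruvate and 2-oxoglutarate dehydrogenases and the glycine cleavage system, did not pass. It had log2 values of 12.06, 12.11 and 12.11 in TG-17, against 12.01, 12.07 and 12.08 in WT, and the groups overlapped. Its log2 difference of 0.040 (standard error 0.050, 95% interval -0.082 to 0.16, adjusted p = 0.726 from limma) turned to -0.025 after a second quantile normalization.

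**Figure D1:**
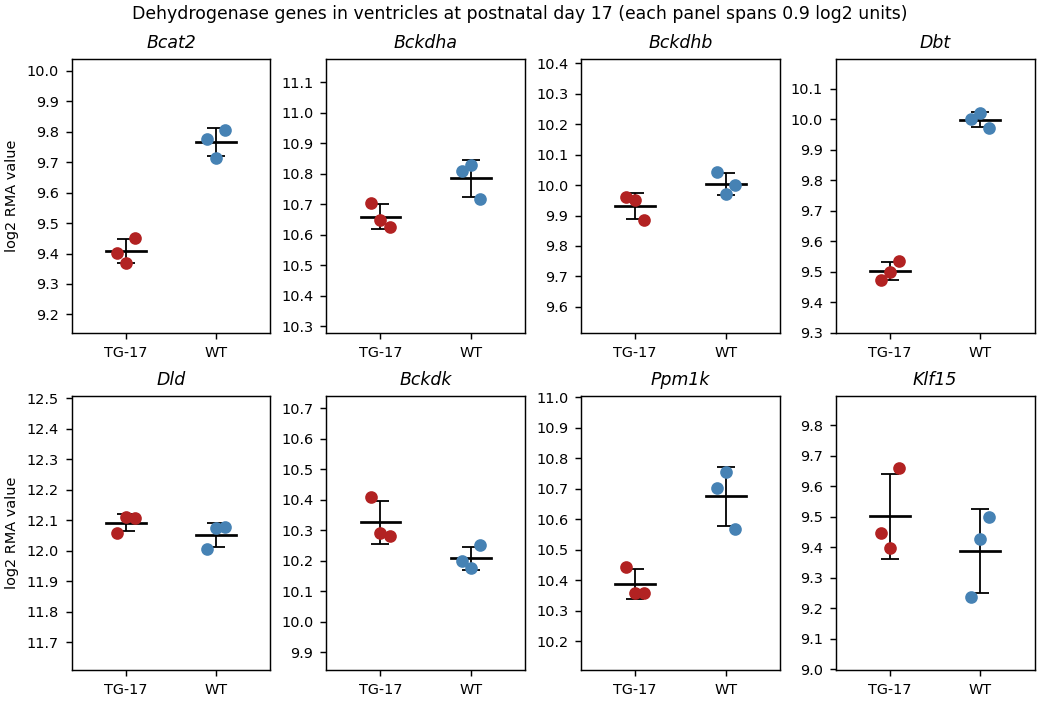
Log2 RMA values (vertical axis) of the 8 genes in ventricles of 3 TG-17 mice (red) and 3 WT mice (blue), with each point 1 mouse, the bar the group mean, the whiskers 1 SD and the same span of log2 units in every panel. The widest gaps between the groups are those of Dbt, 0.44, and Bcat2, 0.26.

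Of the genes for the enzymes that switch the complex on and off, neither was called. The mean of the phosphatase gene was lower and that of the kinase gene was higher in TG-17. Ppm1k, the mitochondrial phosphatase that activates the complex, had log2 values of 10.44, 10.36 and 10.36 in TG-17 ventricles, against 10.70, 10.75 and 10.57 in WT ventricles. The groups were 0.12 log2 units apart. The log2 difference was -0.29 (standard error 0.067, 95% interval -0.45 to -0.12), or 1.22-fold lower in TG-17, and B was -1.64 (unadjusted p = 0.00480 and adjusted p = 0.226 from limma). B was below 0 in all 16 alternative settings, again with the averaging that repeats the main fit. The closest was -0.035, where limma was told to expect a share of 0.05 to be changed. Bckdk, the kinase that inactivates the complex, had log2 values of 10.41, 10.29 and 10.28 in TG-17, against 10.20, 10.18 and 10.25 in WT. It was the only 1 of the 8 genes with every TG-17 value above the WT values, by 0.031 log2 units. Its log2 difference was 0.12 (standard error 0.058, 95% interval -0.023 to 0.26, adjusted p = 0.385 from limma). The log2 difference of Bckdk was 0.050 after a second quantile normalization and 0.17 with each array centred on its median.

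**Figure D2:**
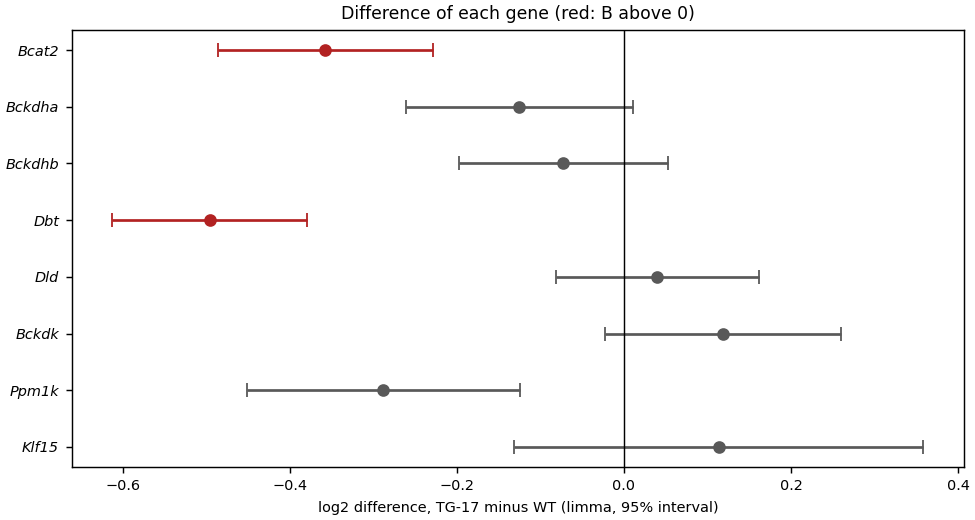
Log2 difference, TG-17 minus WT (horizontal axis), of each of the 8 genes, with the 95% interval from limma. Dbt, at -0.50, and Bcat2, at -0.36, are the genes with B above 0 (red), and the interval of Ppm1k, -0.45 to -0.12, also lies below 0.

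To ask whether the genes shifted relative to each other, differences between pairs of genes were taken within each mouse, for 5 pairs. A shift here is a change of the ratio of 2 probe signals and not of absolute amounts. The log2 value of Dbt minus that of Bckdha was -1.23, -1.15 and -1.09 in the TG-17 mice, against -0.81, -0.81 and -0.74 in the WT mice. The Dbt to Bckdha ratio was thus lower in each TG-17 mouse than in any WT mouse, by 0.37 log2 units on average (standard error 0.046). Against Bckdhb the mean shift of Dbt was -0.42 (standard error 0.050), and against Dld it was -0.54 (standard error 0.030), again with no overlap. These 3 pairs share the values of Dbt and restate its difference, and 23.3% of all single probe sets also had groups that did not overlap. The log2 value of Ppm1k minus that of Bckdk was 0.035, 0.068 and 0.077 in the TG-17 mice, against 0.50, 0.58 and 0.32 in the WT mice. The phosphatase to kinase ratio was therefore lower in all 3 TG-17 mice, with a mean shift of -0.41 (standard error 0.079). Bckdk minus Bckdha was shifted by 0.24 (standard error 0.060), with the TG-17 values above the WT values. In both pairs with Bckdk each gene alone already had groups that did not overlap, in opposite directions. The lack of overlap in these pairs, and with it their permutation result, was thus fixed in advance. They restate the differences of the single genes. In each of the 5 pairs the exact two-sided permutation test gave p = 0.1, which is the smallest value that 3 against 3 mice allow, and p = 0.1 after Benjamini-Hochberg adjustment over the 5 pairs.

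**Figure D3:**
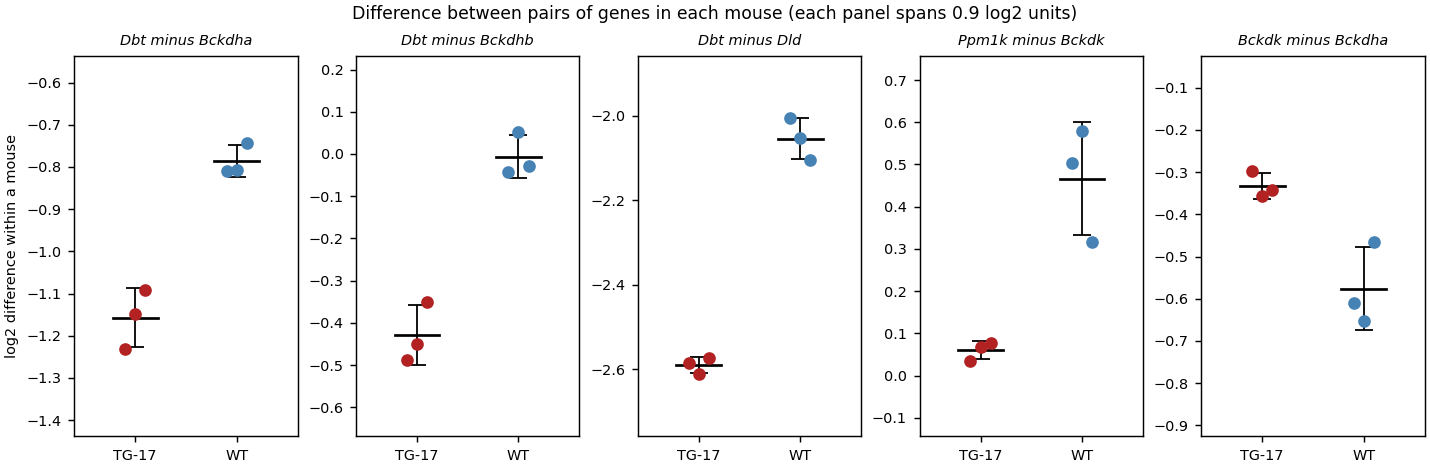
Log2 value of the first gene minus that of the second (vertical axis) in each of 3 TG-17 mice (red) and 3 WT mice (blue), for 5 pairs of genes. Points are mice, bars are group means and whiskers 1 SD. The mean shift, TG-17 minus WT, is -0.54 for Dbt minus Dld and -0.41 for Ppm1k minus Bckdk, and 3 of the 5 pairs share the values of Dbt.

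Klf15 did not pass in TG-17 ventricles. Its log2 values were 9.45, 9.40 and 9.66 in TG-17, against 9.24, 9.43 and 9.50 in WT, so the groups overlapped. The means were 9.50 ± 0.14 in TG-17 and 9.39 ± 0.14 in WT (SD, n = 3 each), and Klf15 varied more between mice of a group than the other 7 genes. Its log2 difference was 0.11 (standard error 0.10, 95% interval -0.13 to 0.36, adjusted p = 0.616 from limma). A fall as large as that of Bcat2 lay outside this interval. The difference was 0.034 without TG-17 replicate 3, which had the highest value, and 0.037 without WT replicate 1, which had the lowest.

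Of 10 known regulators of Klf15 and glucocorticoid-induced genes, none was called at B above 0, and 5 were higher and none lower at an unadjusted p under 0.05, against 6.97% and 8.50% of all probe sets. The median log2 difference of these 10 genes was 0.26, against -0.018 over all named genes, and it was 0.13 without WT replicate 1. Fkbp5, a chaperone partner of the glucocorticoid receptor, had log2 values of 8.46, 8.79 and 9.45 in TG-17, against 7.93, 8.19 and 8.41 in WT. The log2 difference of Fkbp5 was 0.73 (standard error 0.26, adjusted p = 0.291 from limma). Tsc22d3, a mediator of glucocorticoid action, had log2 values of 9.71, 9.74 and 9.84 in TG-17, against 9.14, 9.51 and 9.53 in WT. The kinase gene Sgk1 had 9.25, 9.12 and 9.24 in TG-17, against 8.63, 8.89 and 8.98 in WT. The lowest value of each of Klf15, Fkbp5, Tsc22d3, Sgk1 and the clock gene Per1 was that of WT replicate 1, and the highest value of Klf15, Fkbp5 and Tsc22d3 was that of TG-17 replicate 3. The nuclear receptor gene Ppara and the clock gene Clock had log2 differences of 0.19 and 0.16 (standard errors 0.074 and 0.066), with TG-17 above WT in both. Nr3c1, which encodes the glucocorticoid receptor, had log2 values of 10.05, 9.95 and 10.01 in TG-17, against 10.02, 9.95 and 10.00 in WT, and the groups overlapped. Groups overlapped for 4 of the 10 genes, among them Zbtb16 with a log2 difference of 0.21 (standard error 0.15). Mlxipl was the only 1 of the 10 with a lower mean in TG-17, with a log2 difference of -0.14 (standard error 0.063).

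**Figure D4:**
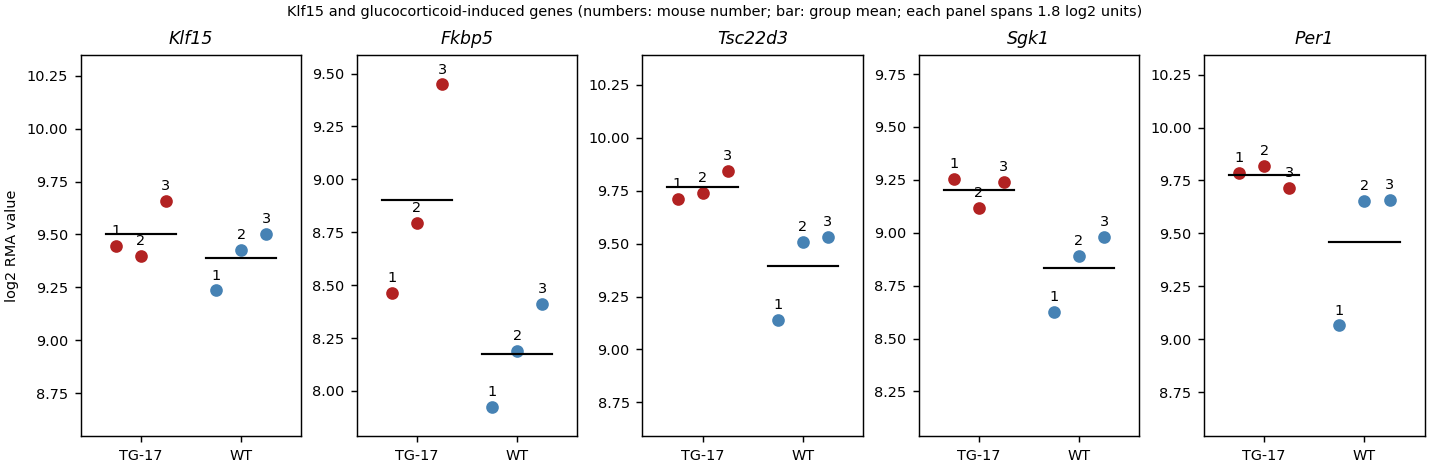
Log2 RMA values (vertical axis) of Klf15 and of 4 glucocorticoid-induced genes in 3 TG-17 mice (red) and 3 WT mice (blue). Numbers are the mouse numbers of the labels and bars are group means. In the list these 4 genes come from, groups overlapped for 4 of the 10 genes, and none of those is shown. WT mouse 1 has the lowest value in every panel, 9.24 for Klf15 and 7.93 for Fkbp5.

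Genes known to lie downstream of Klf15 in heart or muscle had a median log2 difference of -0.077 over 10 genes, which was -0.026 with centred arrays and -0.049 without TG-17 replicate 3. None of them was called at B above 0, though 1 was called in 6 of 15 other settings. At an unadjusted p under 0.05, 2 were lower and none higher, against 8.50% and 6.97% of all probe sets. The alanine aminotransferase gene Gpt had log2 values of 8.29, 8.12 and 8.12 in TG-17, against 8.59, 8.52 and 8.61 in WT. Its log2 difference was -0.40 (standard error 0.067), and B was -0.15, just short of a call. Alas1, the first enzyme of heme synthesis, had a log2 difference of -0.18 (standard error 0.067), and the potassium channel subunit gene Kcnip2 had a log2 difference of -0.12 (standard error 0.058). The glucose transporter gene Slc2a4, the aminotransferase gene Got1 and the fatty acid carrier gene Fabp3 had log2 differences of -0.097, -0.061 and 0.11, and none of these passed.

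The enzymes that act after the dehydrogenase were measured for 22 of 23 genes, and none was called at B above 0. At an unadjusted p under 0.05, 3 were lower and none was higher, against 8.50% and 6.97% of all probe sets, and the means were lower in TG-17 for 11 genes and higher for 11. Aldh6a1, which completes valine breakdown, had a log2 difference of -0.20 (standard error 0.063). The methylmalonyl epimerase gene Mcee and Ivd, the next enzyme of leucine breakdown, had log2 differences of -0.13 each (standard errors 0.052 and 0.050). In 7 of the 22 genes the TG-17 values lay below the WT values and in 1 above them, against 12.1% and 11.3% of all probe sets. The ketone body enzyme gene Oxct1 and the leucine pathway genes Mccc1 and Mccc2 were among the 7. The median of the list was -0.0061, and it was 0.045 with centred arrays, -0.070 after a second quantile normalization and -0.019 to 0.011 with 1 mouse left out.

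Uptake genes and the cytosolic aminotransferase showed no call. Of the 8 genes, none passed an unadjusted p under 0.05 and the median log2 difference was 0.060. This median was 0.11 with centred arrays, 0.032 without TG-17 replicate 1, 0.10 without TG-17 replicate 2 and 0.035 without WT replicate 2. Slc3a2, the shared heavy chain of large amino acid transporters, had log2 values of 10.47, 10.54 and 10.64 in TG-17, against 10.15, 10.44 and 10.45 in WT, a log2 difference of 0.20 (standard error 0.10). Its light chain partner Slc7a5 (0.12, standard error 0.10), the mitochondrial branched-chain amino acid carrier Slc25a44 (0.041, standard error 0.058) and Bcat1, the cytosolic counterpart of Bcat2 (0.085, standard error 0.087), had log2 differences with overlapping groups. So had Slc43a2 (0.079, standard error 0.070). Means were higher for 6 genes of the list and lower for 2, Slc7a8 (-0.089, standard error 0.088) and Slc43a1 (-0.078, standard error 0.12), both with overlapping groups.

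In the sister complexes, the pyruvate and 2-oxoglutarate dehydrogenases, 1 of 15 genes fell, none rose and 14 did not pass. Pdpr, the regulatory subunit of the pyruvate dehydrogenase phosphatase, had log2 values of 9.43, 9.31 and 9.31 in TG-17, against 9.68, 9.72 and 9.69 in WT. The log2 difference of Pdpr was -0.35 (standard error 0.055) with a B of 0.15, and Pdpr was not called without TG-17 replicate 2 or 3 or without WT replicate 1, 2 or 3. Ogdhl, a relative of the 2-oxoglutarate dehydrogenase, had log2 values of 10.33, 10.40 and 10.42 in TG-17, against 10.11, 10.06 and 10.02 in WT. The log2 difference of Ogdhl was 0.32 (standard error 0.054) and its B was -0.076. The pyruvate dehydrogenase kinase gene Pdk2 had a log2 difference of 0.20 (standard error 0.049), and the subunit gene Pdhx one of 0.15 (standard error 0.061). Dlat, the E2 of pyruvate dehydrogenase and counterpart of Dbt, had log2 values of 12.25, 12.22 and 12.18 in TG-17, against 12.30, 12.34 and 12.31 in WT. The log2 difference of Dlat was -0.098 with a standard error of 0.048, and that of Dbt was -0.50. No test of the difference between these 2 genes was made.

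None of 9 genes of lipoic acid attachment and glycine cleavage passed an unadjusted p under 0.05, and their log2 differences ran from -0.070 to 0.12. The citric acid cycle enzymes, taken as other genes of the mitochondrial matrix, were measured for 13 of 14 genes. None was called and none passed an unadjusted p under 0.05. Their log2 differences ran from -0.094 to 0.051, with a median of -0.0037, which was 0.047 with centred arrays and -0.048 after a second quantile normalization.

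**Figure D5:**
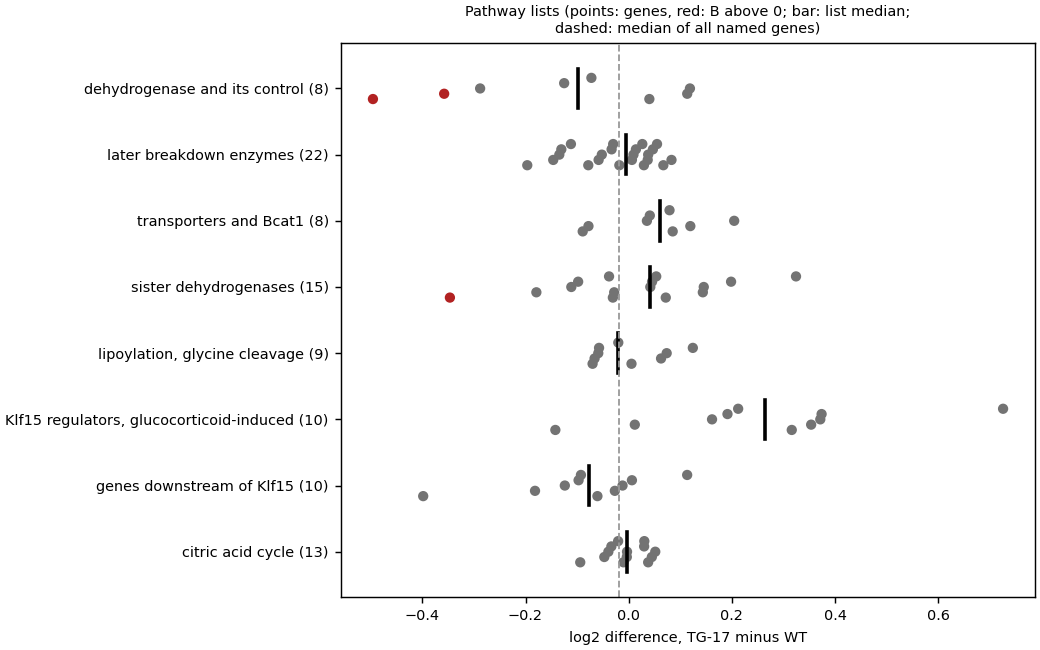
Log2 difference, TG-17 minus WT (horizontal axis), of each measured gene in 8 lists, with the number of genes in brackets. Points are genes, red at B above 0, black bars are list medians and the dashed line is the median of all named genes, -0.018. Dbt and Bcat2 are the red points of the first list and Pdpr the red point of the sister dehydrogenases, while the 13 citric acid cycle genes lie between -0.094 and 0.051.

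The genes whose values over the 6 mice were most like those of the 2 called genes were found by the root mean square difference of the log2 values, each gene centred on its mean, among 19930 other genes. For Dbt they were Csrp2, a LIM protein of smooth muscle, at 0.041, Dnph1, a nucleotide hydrolase, at 0.054 and Slc16a13, a member of the monocarboxylate transporter family, at 0.059. For Bcat2 they were the receptor gene Mrgprh at 0.020, Pex19, which serves peroxisome assembly, at 0.027 and the homeobox gene Hmx3 at 0.027. Their log2 differences ran from -0.45 to -0.32, and B was above 0 for 5 of the 6, all but Hmx3. These genes were picked for values like those of Dbt and Bcat2 in the same mice, so such differences follow from the choice. Among the 8 genes the closest pair was Bckdha and Bckdhb at 0.052, and Bcat2 and Dbt were 0.082 apart.

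Markers of cell types were measured beside these values. The 10 cardiomyocyte markers had a summed linear signal of 118415 to 120180 in TG-17 and 118038 to 119184 in WT, and none was called. Of 6 atrial markers, 2 fell (Myl4 and Myl7), and 4 were lower at an unadjusted p under 0.05, these 2 with Sln and Nppa. The summed signal of the 6 was 3614 to 3756 in TG-17 and 4231 to 5082 in WT. The log2 values of Myl7 were 8.51 to 8.60 in TG-17 and 9.00 or more in WT, and those of Myl4 were 9.18 to 9.27 in TG-17 and 9.67 or more in WT. The 6 smooth muscle and pericyte markers summed to 11522 to 11869 in TG-17 and 12214 to 13023 in WT, with none called and 3 lower at an unadjusted p under 0.05. The 7 fibroblast markers summed to 25870 to 27033 in TG-17 and 25316 to 25866 in WT, the 6 endothelial markers to 9792 to 9832 in TG-17 and 9511 to 9790 in WT, and the 6 leukocyte markers to 2282 to 2342 in TG-17 and 2103 to 2210 in WT. None of these fibroblast, endothelial and leukocyte genes was called. The genes of each list did not move together, and a linear sum follows its brightest genes. Means were higher for 4 and lower for 2 leukocyte markers, with log2 differences of 0.27 for Lyz2 and -0.27 for Cd3e. They were higher for 4 and lower for 3 fibroblast markers (Col1a1, Col1a2 and Col3a1), and higher for 4 and lower for 2 endothelial markers. The 6 adipocyte markers (744 to 818 in TG-17 and 791 to 818 in WT) and the 4 liver markers (221 to 239 in TG-17 and 227 to 241 in WT) overlapped between the groups, and Alb, the defining liver transcript, had log2 values of 5.45 to 5.72 over all mice. The part of the atrial, smooth muscle and other cells in the fall of Dbt and Bcat2 was not tested.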

How the data were processed

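Ventricle RNA of 3 TG-17 and 3 WT mice was hybridised, each mouse on its own Mouse Gene 1.0 ST array. The deposited values are log2 signals of probe sets made by RMA (background correction, quantile normalization and probe summary), as named in the submitters' processing notes. RMA version: not given in the sources used here. All 35556 probe sets were used, and 0 columns were left out. The arrays give no counts, so the number of arrays limits the precision. Probe sets were named through the platform annotation, with symbols updated by Entrez identifier through RefSeq (GRCm38.p6). Of them, 21789 had 1 symbol, 1621 had several and 12146 had none here. A gene was represented by its brightest probe set.

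Groups were compared with limma 3.58.1 in R 4.3.3 (lmFit, eBayes, assumed share 0.01) on all probe sets, with Benjamini-Hochberg adjustment over all of them. The fit was tested on simulated data for the same 3 against 3 arrays and 35556 probe sets. Of 100 that were given a 1.4-fold change, 63% had B above 0, as had 84% of 100 given a 2-fold change, and 31 others were called falsely. These rates need not hold for the real arrays, where values of probe sets can shift together. Pairs of genes were compared with exact permutation tests. Genes outside the 8 were named where they passed B above 0 or had the smallest p of their list, as nearest by likeness, or as markers. Those shown beyond the 4 smallest p of a list (Clock, Per1, Nr3c1, Zbtb16, Mlxipl, Got1, Slc2a4, Mccc1, Mccc2, Slc25a44, Slc43a1, Bcat1, Dlat) were added after their values were seen. The 8 genes and all lists were chosen with earlier results of these data known, including those of Dbt, Bcat2 and Gpt. The mice are separate animals. Deviations of mice with the same number correlated across groups at 0.024, -0.00044 and 0.057, so the numbers were not taken as pairs.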

Additional observations from a re-analysis of the deposited data

How the results depend on the processing

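With 3 mice per group the arrays can miss small changes, and 1 probe set per gene left no second measurement of any of the 8 genes. Averaging probe sets per gene therefore gave the same values. Dbt was called at B above 0 in all 16 alternative settings that gave a B, with a B of only 0.018 under the replicate block, a log2 difference of -0.55 to -0.44 and of -0.51 to -0.48 with 1 mouse left out, where its adjusted p from limma was 0.222 to 0.401. Bcat2 was called in 8 of 16. Averaging repeats the main fit, so it could not lose a call for either gene. An assumed share of 0.05 raised B to 2.97 for Dbt and 1.69 for Bcat2. With centred arrays the log2 difference of Bcat2 was -0.31 and it was not called, which left 1 of the 8 genes called. With the mouse number as a replicate block it was -0.36 and was not called, which again left 1 of the 8. With 1 mouse left out it was -0.38 to -0.34, and 1 gene, Dbt, was called in each case. Dld had a log2 difference of -0.025 after a second quantile normalization. The other 5 genes kept their direction and stayed uncalled in each setting.

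At an adjusted p under 0.05 from limma, 2 of the 8 genes (Dbt and Bcat2) passed when only probe sets above the median mean value were tested, 1 (Dbt) passed among listed probe sets only and 1 (Dbt) passed with an intensity trend, and 52, 6 and 26 of all probe sets passed in these settings, against 2. Without moderation, which gives no B, and with the replicate block, 0 of all probe sets passed. With 1 mouse left out 0 or 1 passed. The number of probe sets at B above 0 was 130, and 287 with an intensity trend, 714 with an assumed share of 0.05, 69 with the replicate block and 29 to 112 with 1 mouse left out. Centring turned the split of these calls to 96 higher and 40 lower, against 55 higher and 75 lower. In the sister complexes 0 to 3 of 15 genes were called over the settings. The median of their log2 differences was 0.042, and it was 0.093 with centred arrays and -0.032 after a second quantile normalization. The differences between pairs of genes were recomputed with 1 mouse left out, which cannot turn the direction of groups that do not overlap. They were also recomputed with probe sets averaged per gene, which gave the same values, and in no other setting. The causes of the changes between settings were not tested.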
